A study of Mus musculus with 6 samples.

Results

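The tetraspanins are a family of small membrane proteins, here all genes whose symbol is Tspan followed by a number, together with Cd9, Cd37, Cd53, Cd63, Cd81, Cd82 and Cd151. Of the 27 such genes that RefSeq lists, 25 had a probe set that carries their symbol alone, among 18193 genes measured in all. Cd63 and Tspan7 were not analysed here. Members were chosen by name, and each was represented by its probe set with the highest mean over the 6 samples. That mean level is therefore a description. The comparison below entered neither membership under this naming rule nor the choice of probe set. The rule itself was set with earlier results of these data known. The family was singled out with the result for Tspan2 already known, so that result is no independent support for anything said of the family.

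Expression was measured on Affymetrix arrays in B cells from the spleens of 6 mice, 1 array per mouse. All 6 carried the Bcl2 transgene EµBcl2, whose Eµ immunoglobulin enhancer drives expression in B cells, so the controls over-express Bcl2 too. In 3 mice both copies of Crebbp were flanked by recombination sites (CBPF/F x EµBcl2, Crebbp-floxed), and in 3 both were deleted (CBPΔ/Δ x EµBcl2, Crebbp-deleted). Crebbp encodes a histone acetyltransferase, also called CBP, that transcription factors such as CREB recruit to their target genes. The comparison asked how Bcl2-expressing B cells differ once Crebbp is lost. The recombinase and its promoter, the age of the mice and their strain background are not given in the sources used here. Spleen cells had been frozen and thawed before CD43-bearing cells were removed on beads, which leaves resting B cells and takes away most plasma cells, T cells and myeloid cells.

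Tetraspanins cross the membrane several times and gather integrins, immunoglobulin superfamily proteins, proteases and each other into patches called tetraspanin-enriched microdomains. In B cells, Cd81 belongs to the coreceptor of the B cell receptor, Cd37 and Cd53 are abundant leukocyte members, and the members called TspanC8 carry the protease Adam10 to the cell surface. Adam10 in turn cuts Notch receptors and the low-affinity IgE receptor CD23 (Fcer2a). In mice, loss of Cd37 impairs IgG responses and leads to B cell lymphoma.

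Levels below are log2 intensities of normalized arrays, and a difference is the deleted mean minus the floxed mean on that scale. The 6 arrays had medians from 4.27 to 4.30, and the Crebbp probe sets checked the labels: each of the 4 read lower in every deleted mouse than in any floxed mouse, with deleted means at 51% to 70.6% of floxed ones. The B cell genes Cd79b and Ms4a1 stood at 12.18 to 12.45 and at 12.43 to 12.80 in all 6 samples. Ms4a1 was nonetheless lower in every deleted sample than in any floxed one. Other cells' markers moved with the groups. The summed intensity of the 8 plasma cell markers ran from 3736 to 4245 in floxed samples and from 8599 to 13154 in deleted ones, where 1 of the 8, Jchain, rose (limma adjusted p = 0.011), all 8 differences were positive (median 1.39) and 6 had an unadjusted p under 0.05. That of the 10 monocyte and macrophage markers ran from 450 to 1550 and from 1446 to 3488, with 0 called by limma. All 10 differences were positive (median 1.61), 8 of them at an unadjusted p under 0.05. The groups did not overlap in 4 of these 10, and in 6 of the 8 plasma cell markers. Conversely, the 6 measured B cell markers summed to between 18635 and 21809 in floxed samples and to between 15173 and 16266 in deleted ones. Of them 1 was called, Cd79a, which fell by 1.11 (limma adjusted p = 0.0093). All 6 differences were negative (median −0.23), 2 at an unadjusted p under 0.05, and in 3 the groups did not overlap. Over all genes limma called 0.781%, 14.8% had an unadjusted p under 0.05, and in 21.2% the groups did not overlap. In the 9 other marker lists, for marginal zone and B-1 cells and for T, NK, dendritic, erythroid and stromal cells, neutrophils and platelets, limma called 0 genes; 3 of 5 marginal zone markers and 0 or 1 in each of the others had an unadjusted p under 0.05. The part of these cell markers in the results below was not tested. In a bulk sample, fewer cells of a type and less RNA per cell cannot be told apart.

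The promoters of the 3 members with the smallest p are shown first, because Crebbp acts at promoters and enhancers. Tspan2 was the single member past the test, and Cd53 and Tspan31 were next in line, lower and higher. The 250 bases before each gene's start are taken from RefSeq, build GRCm38.p6, and written on the gene's own strand. Tspan2 has 2 such start windows, of which the more upstream is shown. Capitals mark the core of the CRE, the element that CREB binds (TGACG, or CGTCA for the other strand).
Tspan2, chr3:102734520-102734769, plus strand: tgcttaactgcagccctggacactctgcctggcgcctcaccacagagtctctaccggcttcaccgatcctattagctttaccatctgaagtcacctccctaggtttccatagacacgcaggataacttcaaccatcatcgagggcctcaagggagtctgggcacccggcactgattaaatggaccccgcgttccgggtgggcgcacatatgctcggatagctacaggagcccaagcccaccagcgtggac
Cd53, chr3:106790150-106790399, minus strand: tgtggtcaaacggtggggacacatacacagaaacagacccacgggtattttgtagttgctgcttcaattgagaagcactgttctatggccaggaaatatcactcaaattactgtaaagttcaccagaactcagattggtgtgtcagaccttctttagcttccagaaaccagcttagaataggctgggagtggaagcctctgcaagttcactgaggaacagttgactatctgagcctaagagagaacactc
Tspan31, chr10:127070262-127070511, minus strand: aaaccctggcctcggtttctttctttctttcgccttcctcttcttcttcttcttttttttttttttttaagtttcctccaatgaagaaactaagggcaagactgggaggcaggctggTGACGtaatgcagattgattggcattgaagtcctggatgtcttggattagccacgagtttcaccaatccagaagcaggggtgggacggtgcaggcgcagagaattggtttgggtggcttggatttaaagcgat

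The Tspan31 window holds 1 CRE core, which begins 133 bases before the start, and the windows of Tspan2 and Cd53 hold 0. Across the family, 2 of the 34 RefSeq start windows of 24 members hold the core on either strand (5.88%), those of Tspan31 and Cd151, beside 17.8% of all 32851 windows of the same length. The full palindromic site, TGACGTCA, is in 0 of the 34 and in 1.55% of all windows; it contains the core. A match describes the letters only, and a missing one says nothing about whether CREB or Crebbp acts on the gene. G and C make up 57.2% of the Tspan2 window shown, 45.2% of that of Cd53 and 46% of that of Tspan31.

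Across the family 1 gene fell, 0 rose and 24 did not pass (limma, Benjamini-Hochberg adjusted p under 0.05 over all genes). Over all 18193 genes 0.781% passed in either direction, 0.544% higher and 0.236% lower. At an unadjusted p under 0.05 stood 5 of the 25 members (20%), 3 higher and 2 lower, beside 14.8% of all genes, 7.96% higher and 6.84% lower. The groups did not overlap in 7 members (28%), 4 higher and 3 lower, beside 21.2% of all genes. The median difference of the 25 was 0.01, as was that of all genes, with 15 differences positive and 10 negative. These shares are near the background, so the counts are no result about the family, and what follows concerns single members.

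**Figure D1:**
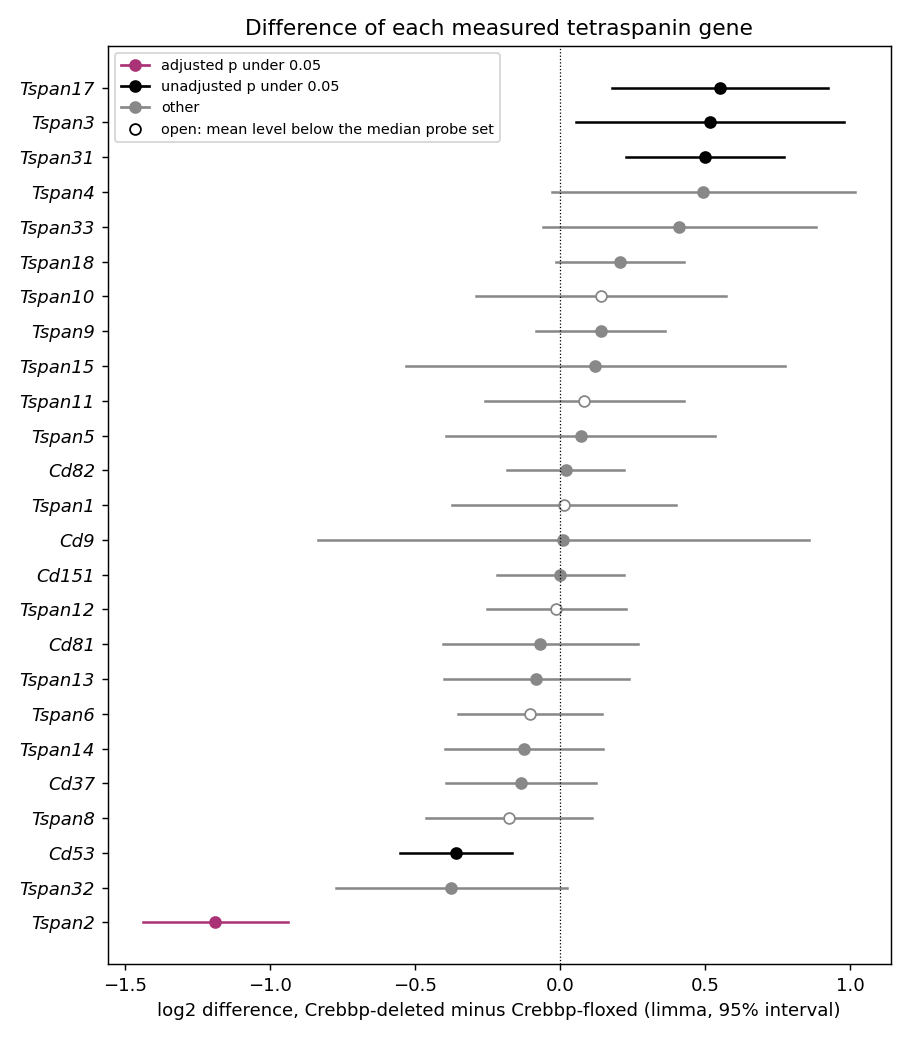
Log2 difference (Crebbp-deleted minus Crebbp-floxed, horizontal axis) of the 25 measured tetraspanin genes, ordered by size, with the 95% interval from limma; open circles are genes whose mean level lies below the median of all probe sets. Tspan2, at −1.19, lies apart from the other 24, which run from −0.38 to 0.55.

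Tspan2 belongs with Cd9 and Cd81 to one branch of the family and is best known from myelinating cells. Its levels were 5.77, 5.52 and 5.81 in floxed samples 1, 2 and 3 and 4.54, 4.56 and 4.43 in deleted samples 1, 2 and 3. The lowest floxed sample thus lay nearly a whole log2 unit above the highest deleted one, and the spread within each group was small. The mean fell from 5.70 ± 0.15 to 4.51 ± 0.07 (SD, n = 3 each), a log2 difference of −1.19 (SE 0.11, 95% interval −1.44 to −0.94) or a 2.28-fold decrease, with a limma adjusted p of 0.0088. The deleted mean is close to the median of all probe set means, 4.29, where signal is dim and a fold is uncertain.

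The other probe sets of Tspan2 gave the same direction. Probe set 1424567_at read 5.43, 5.74 and 5.98 in the floxed samples and 4.58, 3.64 and 5.0 in the deleted ones. Probe set 1432417_a_at read 4.63, 4.76 and 4.75 in the floxed samples and 4.06, 3.56 and 4.10 in the deleted ones. At all 3 probe sets the groups did not overlap, but on these other probe sets deleted sample 2 lay well below its group, which the representative 1424568_at did not show. When all 45037 probe sets were tested, 1424568_at passed (limma adjusted p = 0.017), while 1424567_at, with a difference of −1.31, and 1432417_a_at, with one of −0.81, did not (adjusted p = 0.15 and 0.089).

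The call on Tspan2 depended on 2 of the mice. Without floxed sample 1 the difference was −1.15 and the limma adjusted p 0.057, in a comparison that then called 0 genes of any kind, with 1990 at an unadjusted p under 0.05. Without deleted sample 1 the difference was −1.20 and the adjusted p again 0.057. Xist and the Y-linked genes showed that 3 of the mice, floxed sample 1 and deleted samples 1 and 3, were male, and that the other 3 were female. With sex as a term Tspan2 stayed past the test (−1.19, limma adjusted p = 0.038). The difference was −1.28 within males (1 floxed, 2 deleted) and −1.10 within females (2 floxed, 1 deleted); with 1 mouse in a group these are given as values, without a test.

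Of the other members of that branch, Cd81, the coreceptor protein, read 10.32, 10.30 and 10.09 in floxed samples and 10.01, 10.03 and 10.46 in deleted samples. The highest value of all 6 was that of deleted sample 3, so the groups overlapped. The difference was −0.07 with a 95% interval from −0.41 to 0.27 (limma adjusted p = 0.874). Cd9, which in the spleen marks marginal zone B cells, B-1 cells and plasma cells, read 8.03, 7.39 and 7.96 in floxed samples and 7.44, 7.30 and 8.67 in deleted samples. It varied more within the deleted group than any other member (SD 0.76), because deleted sample 3 stood far above the other deleted samples. The mean difference was 0.01 with a 95% interval from −0.84 to 0.86 (limma adjusted p = 0.993), an interval that spans a rise and a fall of similar size. Without deleted sample 3 the Cd9 difference was −0.42 (adjusted p = 0.464). Deleted sample 3 also had the highest plasma cell sum, 13154 against 8599 and 9131 in deleted samples 1 and 2. Its marginal zone sum was the highest too, 9265 against 5463 to 7538 in the other samples. That list includes Mzb1, which plasma cells also express and which read 12.47 there, against 11.17 to 11.77 in the others. In the same list, Cr2 and Dtx1 read 10.79 and 9.74 in deleted sample 3, below every floxed sample. Cd1d1 and S1pr3 overlapped between the groups. The monocyte and macrophage sum (3488), neutrophil sum (551) and erythroid sum (87, against 35 to 38 in the others) of deleted sample 3 were also the highest of the 6 samples. Its B-1 sum, 213, was not the highest (280 in floxed sample 3). Nor were its B cell, T cell, NK, dendritic, platelet and stromal sums. Deleted samples 1 and 2 had plasma cell sums above every floxed sample. Their Cd9 levels, 7.44 and 7.30, lay below those of floxed samples 1 and 3, 8.03 and 7.96. Whether any of these cell types accounts for the Cd9 values was not tested.

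**Figure D2:**
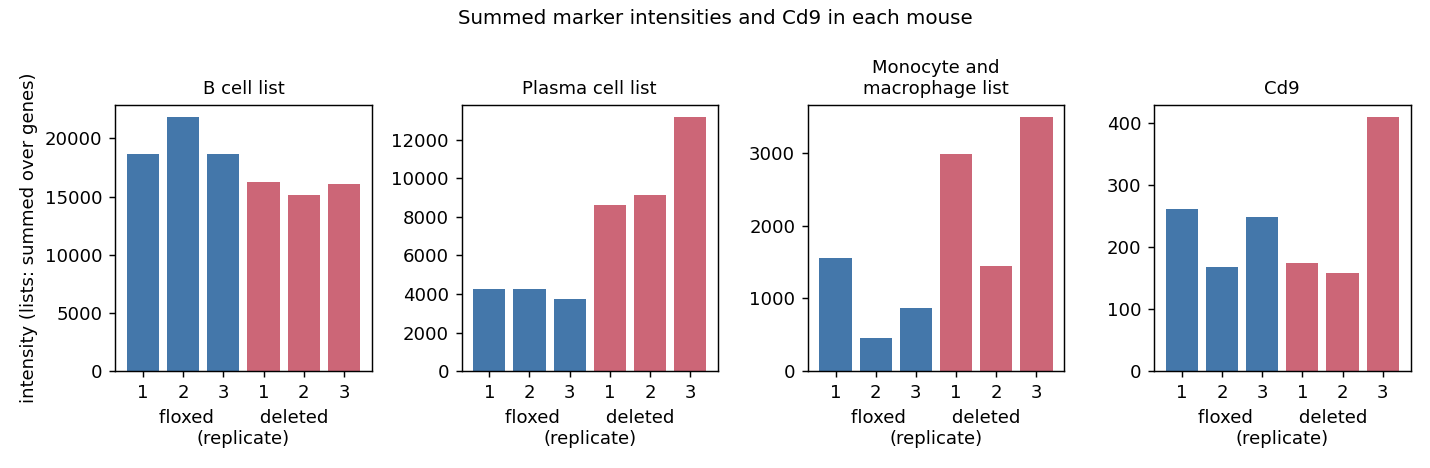
Summed intensity (vertical axes, linear) of the B cell, plasma cell and monocyte and macrophage marker lists and intensity of Cd9 in each of the 6 mice, blue for Crebbp-floxed and red for Crebbp-deleted. The plasma cell sum is at 8599 or more in the deleted mice, and deleted sample 3 is highest both there and for Cd9. Deleted samples 1 and 2 exceed every floxed sample for that sum, but for Cd9 they lie below floxed samples 1 and 3.

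Among the leukocyte members, Cd53, which is found on nearly all white blood cells and stabilises the homing receptor L-selectin, was lower in the deleted samples without passing. It read 12.02, 12.04 and 11.95 in floxed samples and 11.62, 11.68 and 11.64 in deleted samples. The groups were tight and did not overlap. The difference was −0.36 (SE 0.08, 95% interval −0.55 to −0.17), a level 78% of the floxed one, with an unadjusted p of 0.003 and a limma adjusted p of 0.11. Its second probe set, 1459744_at, read 7.51, 7.51 and 7.16 against 6.88, 6.93 and 6.74 and also kept the groups apart, with a difference of −0.54. Cd53 passed only with log2(intensity + 16) (−0.36, limma adjusted p = 0.042) and with limma's trended, robust variance (−0.36, adjusted p = 0.045). Leaving out single samples gave limma adjusted p from 0.149 to 0.30. With sex as a term it was 0.194, and with the replicate number as a block 0.20.

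Cd37, which restrains B cell lymphoma in mice, read 11.56, 11.86 and 11.55 in floxed samples and 11.57, 11.53 and 11.46 in deleted samples. Floxed sample 2 stood alone above the other values, and the groups overlapped. The difference was −0.13 with a 95% interval from −0.39 to 0.12 (limma adjusted p = 0.632), −0.40 at its dimmer probe set, and −0.03 without floxed sample 2. Tspan32, also called Tssc6 and found mainly in blood cells, read 8.65, 9.23 and 8.59 in floxed samples and 8.40, 8.45 and 8.50 in deleted samples. The groups did not overlap, but the gap between the nearest samples was small and floxed sample 2 carried much of the difference. That difference was −0.38 (95% interval −0.77 to 0.02, limma adjusted p = 0.364), and −0.17 without floxed sample 2. Cd82, known as a suppressor of metastasis, varied little, between 9.38 and 9.54 in all 6 samples. Its difference was 0.02 with a 95% interval from −0.18 to 0.22.

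**Figure D3:**
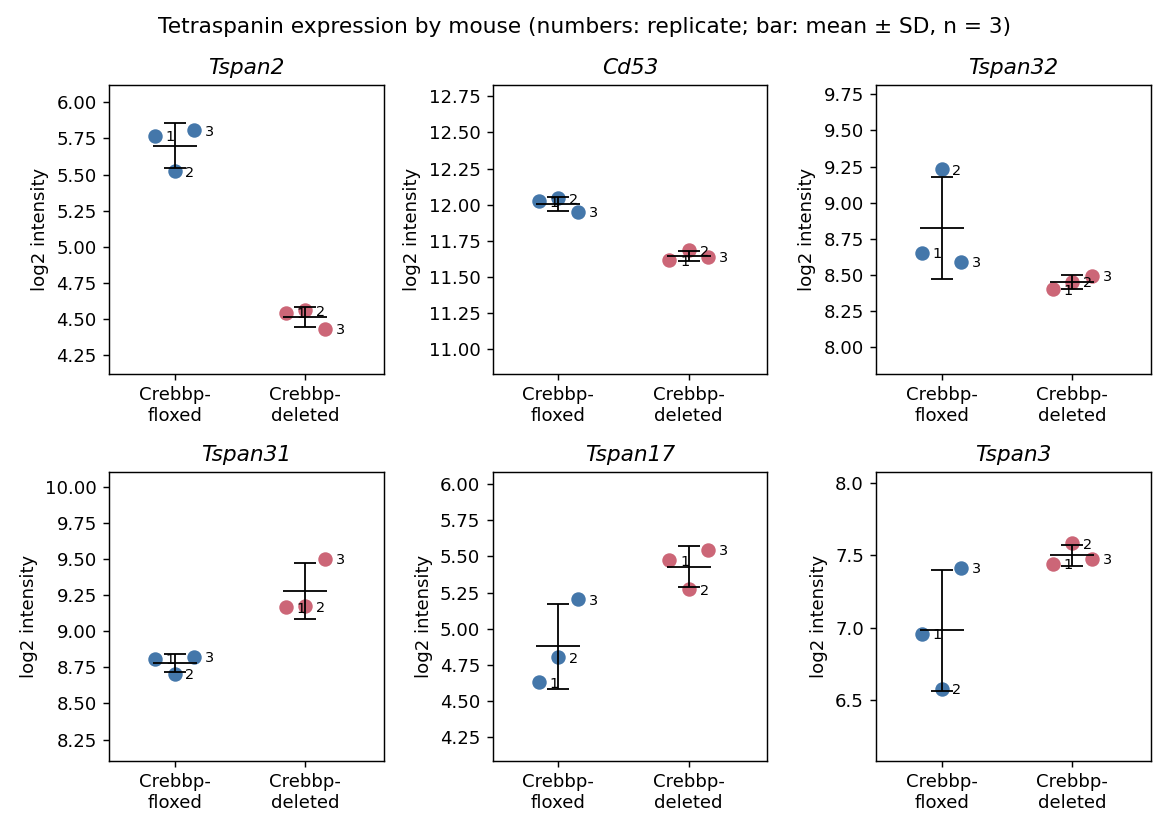
Log2 intensity (vertical axes) of 6 tetraspanin genes in each mouse, with the replicate number beside each point and the mean ± SD of each group of 3. Each panel has its own range of at least 2 log2 units. The 6 shown are among the 7 of 25 members (28%) whose groups do not overlap, beside 21.2% of all genes. The gap is widest for Tspan2.

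Another 3 members, each at an unadjusted p under 0.05 by limma, stood higher in all deleted samples without passing, as did Tspan18, given below. Tspan31, a gene first found amplified in sarcomas, read 8.81, 8.71 and 8.82 in floxed samples and 9.17, 9.17 and 9.50 in deleted samples. Deleted sample 3 was the highest, and the groups did not overlap. The difference was 0.50 (95% interval 0.23 to 0.77, limma adjusted p = 0.112), and its other probe sets were higher by 0.29 and 0.30 with overlapping groups. Tspan3 read 6.96, 6.57 and 7.41 in floxed samples and 7.44, 7.58 and 7.47 in deleted samples. Floxed sample 3 came within a few hundredths of the lowest deleted sample. Its difference was 0.52 (95% interval 0.06 to 0.98, limma adjusted p = 0.28), 0.31 without floxed sample 2 and 0.73 without floxed sample 3.

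The third, Tspan17, is one of the 6 TspanC8 genes. It read 4.63, 4.80 and 5.20 in floxed samples and 5.47, 5.27 and 5.54 in deleted samples. The groups did not overlap at this probe set or at 1424334_at, where the levels were 4.43, 4.44 and 4.55 against 4.82, 4.98 and 4.85. The difference was 0.55 (95% interval 0.18 to 0.93, limma adjusted p = 0.174), and 0.41 at 1424334_at. Of the other TspanC8 genes 0 were called by limma, beside 0.781% of all genes. At an unadjusted p under 0.05 stood 0 of them, beside 14.8% of all genes, so few genes make these counts uninformative. Tspan33, which activated B cells express and erythropoiesis needs, read 4.42, 4.21 and 4.81 in floxed samples and 4.93, 4.56 and 5.18 in deleted samples. The groups overlapped, the difference was 0.41 (95% interval −0.06 to 0.88, limma adjusted p = 0.396), and all 4 of its probe sets were higher by 0.10 to 0.41. The difference was 0.27 without deleted sample 3 and 0.27 without floxed sample 2. It was 0.58 without floxed sample 3 and 0.58 without deleted sample 2.

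Tspan14 lay between 7.50 and 7.92 in all samples with a difference of −0.12 (95% interval −0.40 to 0.15), and of −0.02 without floxed sample 2 and −0.08 without deleted sample 1. Tspan5 had a difference of 0.07 (95% interval −0.39 to 0.53). Tspan15 read 5.37, 5.65 and 5.06 in floxed samples and 5.41, 4.96 and 6.07 in deleted ones, with deleted sample 3 highest as for Cd9. Its difference was 0.12 and its interval wide, from −0.53 to 0.77. Tspan10 lay below the median of all probe sets, between 2.94 and 3.71, so its difference of 0.14 says little. Over the 6 genes 5 differences were positive and 1 was negative, beside 9705 positive and 8483 negative among all genes. Those of Tspan5, Tspan10 and Tspan15 could change sign when a single sample was left out.

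The integrin-binding member Cd151 has 6 probe sets, 4 higher and 2 lower, with differences from −0.17 to 0.24. Its representative read 5.84, 5.95 and 5.76 in floxed samples and 5.93, 5.79 and 5.84 in deleted samples, a difference under 0.01 with a 95% interval from −0.22 to 0.22. Tspan4, a marker of the vesicles that migrating cells leave behind, read 4.37, 4.19 and 3.87 against 4.65, 4.21 and 5.06. Deleted sample 3 was again the highest and the groups overlapped, with a difference of 0.49 (95% interval −0.03 to 1.02, limma adjusted p = 0.363). Of the remaining members, Tspan18 did not overlap between the groups (4.13 to 4.32 in floxed samples, 4.34 to 4.48 in deleted ones; difference 0.21, limma adjusted p = 0.366). Tspan13 was bright, between 10.45 and 10.91, with a difference of −0.08, and Tspan9 had one of 0.14.

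In all, 6 members, Tspan1, Tspan6, Tspan8, Tspan10, Tspan11 and Tspan12, had mean levels below the median of all probe sets. Their differences ran from −0.17 to 0.14, and for genes this dim a lack of difference on the array does not show a lack of change. Of the 19 members above that median, 5 had an unadjusted p under 0.05 (26.3%), beside 20.6% of all genes above it, so this count too is near the background. Floxed sample 2 was the highest of the 6 samples for 7 members and the lowest for 8, and deleted sample 3 the highest for 8 and the lowest for 4. Deleted sample 1 was the highest for 0 members.

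Several probe sets of a gene were read for 17 of the 25 members, and their directions were the same in 12 and divided in 5 (Cd151, Tspan1, Tspan6, Tspan8 and Tspan11). Of all 56 member probe sets 1 passed when all probe sets were tested, beside 0.411% of the 45037, and 10 had an unadjusted p under 0.05, where the background share was 13.6%. In 13 the groups did not overlap, beside 19.8%. Among them, every probe set of Tspan2, Cd53 and Tspan17 kept the groups apart.

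**Figure D4:**
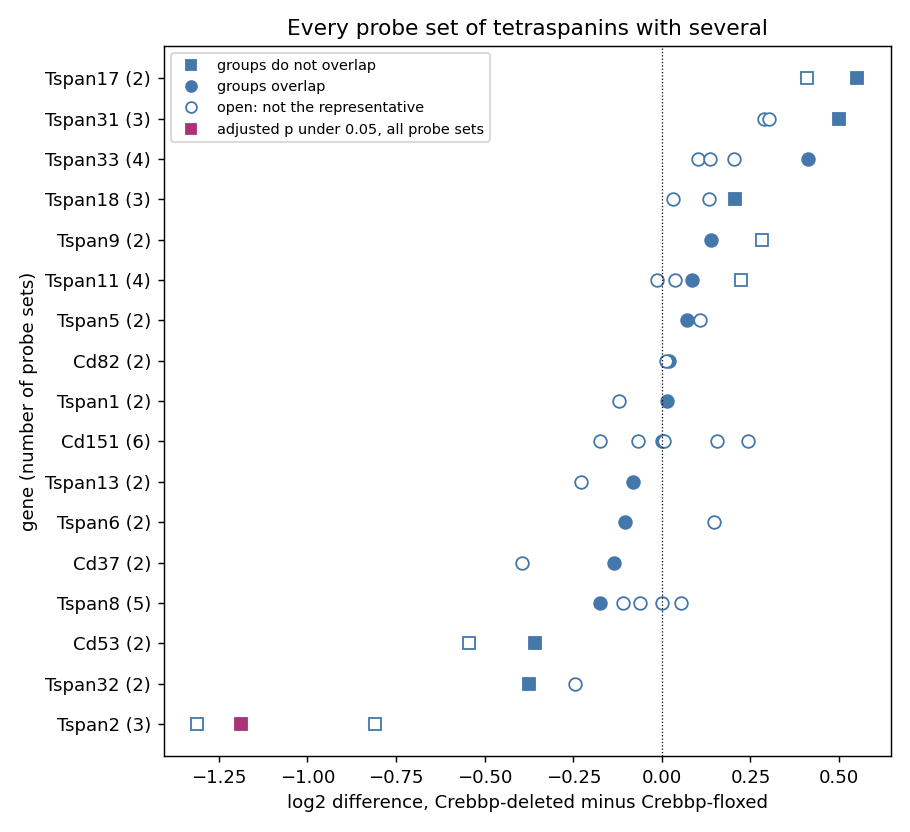
Log2 difference (horizontal axis) at each probe set of the 17 tetraspanin genes that have several; filled symbols mark the representative, squares mark probe sets whose groups do not overlap. The 3 probe sets of Tspan2 lie from −1.31 to −0.81, and the 6 of Cd151 lie on both sides of 0.

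Of 37 listed genes of tetraspanin partners and relatives, 36 were measured. By limma, 0 of them were called over all genes, beside 0.781% of all genes, and 9 (25%, 4 higher and 5 lower) stood at an unadjusted p under 0.05, beside 14.8%. The groups did not overlap in 14 (38.9%), beside 21.2% of all genes. This list was drawn up with earlier results of these data known, and some of its genes mark B cell subsets. The 4 relatives with other names, Upk1a, Upk1b, Prph2 and Rom1, had differences between −0.04 and 0.06.

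Adam10, the protease that TspanC8 members carry, read 9.74, 9.55 and 9.80 in floxed samples and 9.62, 9.53 and 9.54 in deleted samples. The groups overlapped, and the difference was −0.13 (limma adjusted p = 0.589). It was −0.21 without floxed sample 2, −0.08 without floxed sample 3, −0.21 with the mean of its probe sets and −0.31 at the probe set with the largest interquartile range, none of them past the test. Its substrate Fcer2a read 10.78, 11.35 and 10.70 in floxed samples and 9.96, 10.01 and 9.76 in deleted samples. The groups lay clearly apart, with a difference of −1.03 (SE 0.18) and a limma adjusted p of 0.057; it passed in 4 of 17 other settings. Notch1, another substrate, was higher by 0.70 (6.41, 7.17 and 6.54 against 7.37, 7.30 and 7.54, limma adjusted p = 0.164). It passed in 1 of 17 other settings, without floxed sample 2, at 0.93 (limma adjusted p = 0.038). Without floxed sample 1 it was 0.55 (limma adjusted p = 0.411).

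In the coreceptor, the complement receptor Cr2 read 11.20, 11.49 and 11.01 in floxed samples and 10.62, 10.04 and 10.79 in deleted samples. All deleted samples were lower, and its difference of −0.75 did not pass (limma adjusted p = 0.164), while its partner Cd81 differed by −0.07. Of the interferon-induced Ifitm genes 0 of 3 had an unadjusted p under 0.05. Among integrins and immunoglobulin superfamily partners, the laminin receptor subunit Itga6 read 5.88, 6.17 and 6.36 in floxed samples and 4.81, 5.65 and 3.81 in deleted ones. Deleted sample 3 was far below the rest, and the difference was −1.38 (SE 0.41, limma adjusted p = 0.182). It was −0.91 without that sample and −1.83 without deleted sample 2. The shared β subunit Itgb1 went the other way, 6.51, 6.17 and 7.01 against 7.17, 7.06 and 7.28 (difference 0.61, adjusted p = 0.221), but with the mean of all its probe sets the difference was 0.23. The class II genes H2-Aa and H2-Ab1, whose products sit in tetraspanin patches, had differences of −0.28 and −0.30. Neither passed (limma adjusted p = 0.20 and 0.193). At its probe set with the largest interquartile range H2-Aa differed by −0.20. In the machinery of exosomes, vesicles rich in tetraspanins, 3 of 4 genes had non-overlapping groups, beside 21.2% of all genes, and none passed. Pdcd6ip (Alix) and Tsg101 had differences of 0.27 and 0.13, and Sdcbp (syntenin) one of −0.12. Of the 4 genes 1, Pdcd6ip, had an unadjusted p under 0.05 by limma, beside 14.8% of all genes. With the mean of its 5 probe sets Pdcd6ip differed by 0.01.

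**Figure D5:**
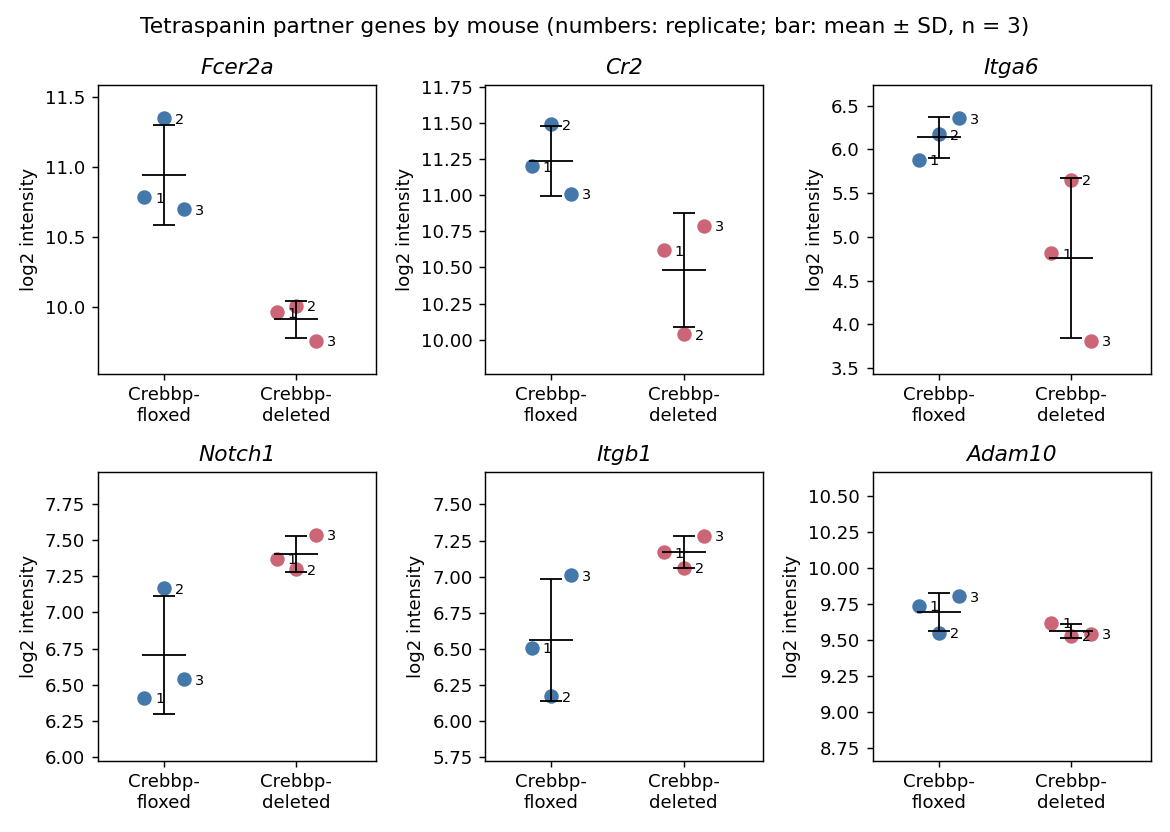
Log2 intensity (vertical axes) of 6 partner genes in each mouse, with the replicate number beside each point and the mean ± SD of each group of 3. Fcer2a, Cr2 and Itga6 are lower and Notch1 and Itgb1 higher in every deleted sample, while the groups of Adam10 overlap. All but Adam10 were picked for the smallest p of their lists. The groups do not overlap in 14 of the 36 partner genes (38.9%), beside 21.2% of all genes. None of the 6 passed limma's test over all genes.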

How the data were processed

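Each of 45101 probe sets of an Affymetrix mouse array has 1 deposited intensity per sample. RMA, which the submitters' processing notes name without a version, corrects background, equalises quantiles and summarises probes. The authors' deposited intensities run from 2.955 to 17022, so they were read as linear and log2-transformed here, with no filter and no further normalization. Genes were named through the platform annotation, updated by Entrez ID (0 symbols changed): 34945 probe sets had 1 symbol, 932 several and 9160 none, and 64 controls were left out. Differences between the groups were tested two-sided, without covariates, by lmFit and eBayes of limma 3.58.1 (R 4.3.3), adjusted by Benjamini-Hochberg over all 18193 genes. The procedure was tested on simulated data.

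The members, lists, partner genes and motif were chosen with earlier results of these data known. Named were the targeted gene, members past an adjusted or unadjusted p of 0.05, the 3 largest differences each way and members fixed by role; of each partner list, up to 2 genes with the smallest p, and Adam10. Other genes named (Tspan1, Tspan4, Tspan6, Tspan8, Tspan9, Tspan11, Tspan12, Tspan13, Tspan18, cell markers and other relatives) were added after their values were seen. Alternatives covered normalization, log scale, a dim filter, probe set choice, limma settings, sex, a replicate block and leaving out each sample; fits within each sex were added after seeing the data. A permutation of 3 against 3 cannot give a p under 0.1, so none was made. Read depth does not apply; the number of arrays limits precision. Figures used matplotlib 3.10.9 in Python 3.11.15.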

Additional observations from a re-analysis of the deposited data

How the results depend on the processing

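Tspan2 kept its direction in all 17 alternatives, which non-overlapping groups largely fix; its difference ran from −1.28 to −0.81, and the latter came with log2(intensity + 16), which shrinks dim genes by construction. The count of tetraspanin genes called, 1, became 2 with log2(intensity + 16) and with limma's trended, robust variance (Cd53 added), 0 within males and 0 within females, and 0 to 1 when single samples were left out. Tspan2 lost the call without floxed sample 1 and without deleted sample 1; the fits within a sex have 1 mouse in a group and say nothing about the call. For all genes, 142 became 219 with the probe set of largest interquartile range, 222 with the trended, robust variance, 37 with sex as a term, 4 within males, 0 within females (992 at an unadjusted p under 0.05) and 0 to 226 without single samples; 62 were called without deleted sample 3, 45 without deleted sample 2 and 16 without deleted sample 1. Partner genes called, 0, became 1 (Fcer2a) with the trended, robust variance and 0 to 2 without single samples. Member probe sets called, 1, became 2 with the trended, robust variance, 0 with sex as a term and 0 to 1 without single samples. With the replicate number as a block, member probe sets called were 0, partner genes called 1 (Fcer2a, limma adjusted p = 0.046) and tetraspanin genes called 1. This block took the SE of Cd9 from 0.36 to 0.24 and that of Tspan2 from 0.11 to 0.12. Over probe sets, deviations of same-numbered samples had correlations of 0.05, 0.08 and −0.07. Such correlations cannot exclude a pairing, since they pool all probe sets and rest on 3 samples a group. Apart from the alternatives just described, the cause of these shifts was not tested.

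Direction changed in 25 of 490 recomputed differences, all of genes that did not pass. Without single samples, Cd151 ran from −0.044 to 0.051, Cd81 from −0.22 to 0.0082, Cd82 from −0.019 to 0.061, Cd9 from −0.42 to 0.26, Tspan5 from −0.14 to 0.27, Tspan10 from −0.026 to 0.36, Tspan15 from −0.17 to 0.38, Ifitm1 from −0.87 to 0.21 and Prph2 from −0.016 to 0.13. Cd151 was at −0.0043 with median centring; with sex as a term Cd151 was at −0.012, Cd9 at −0.17 and Tspan15 at −0.011. Within females, Cd151 was at −0.069, Cd9 at −0.38, Tspan15 at −0.39 and Tspan5 at −0.023, and within males Tspan10 was at −0.040 and Prph2 at −0.079. Signal near background limits the dim members, and 3 mice a group limit all.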

Other observations

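Genes next to the members with an unadjusted p under 0.05 were read in the order of the RefSeq annotation (assembly GRCm38.p6), 3 measured protein-coding genes on each side. Of these 30 neighbours limma called 0; 4 had an unadjusted p under 0.05 (14.8% of all genes did), and in 6 (20%) the groups did not overlap (21.2% of all genes). Around Tspan2, the neighbours Nhlh2, Casq2, Vangl1, Tshb, Sycp1 and Sike1 had differences from −0.19 to 0.24, and in 0 of these 6 were the groups apart; 0 of the 6 had an unadjusted p under 0.05 by limma. Beside Cd53, the potassium channel gene Kcna3, found in lymphocytes, was lower in every deleted sample, from a mean of 6.41 to 5.73, a difference of −0.67 (limma adjusted p = 0.074), while Lrif1 on the other side differed by 0.45 with overlapping groups. Next to Tspan31, the cell cycle kinase gene Cdk4 differed by −0.17. On the other side of Tspan31, Os9 had a difference of 0.30 (limma adjusted p = 0.332) and B4galnt1 one of −0.38 (limma adjusted p = 0.113), both with non-overlapping groups. Peak1, next to Tspan3, had a difference of −0.43 (limma adjusted p = 0.134), against 0.52 for Tspan3 itself.

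Among measured protein-coding genes, 4 pairs of tetraspanins lie side by side: Tspan18 with Cd82, Tspan11 with Tspan9, Cd151 with Tspan4, and Tspan32 with Cd81. The differences within the pairs were 0.21 and 0.02, 0.08 and 0.14, 0.0009 and 0.49, and −0.38 and −0.07.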
